A study of Mus musculus with 12 samples.

Results

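Lipases are enzymes that cut fatty acids from fats, and 7 genes that encode them were followed in whole bone marrow of irradiated and nonirradiated mice treated with parathyroid hormone (PTH) or vehicle. They are Lipg, Abhd6, Lpl, Lipe, Pnpla2, Mgll and Lipa, 7 of 19938 genes with a symbol of their own on the array, and each was read by 1 probe set. Lipg and Abhd6 were selected on their large log2 difference with irradiation in these arrays and that difference is given as a description with no test. The other 5 are well-known lipases. All were followed with earlier results of these arrays known.

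RNA came from marrow flushed out of the long bones of B6 mice at 16 days of age and was hybridised to 12 whole-transcript arrays, 3 in each of 4 groups. In the nonirradiated vehicle group, mice received vehicle for 5 days, from day 11 to day 15, and in the nonirradiated PTH group they received PTH, the calcium-regulating hormone used to build bone, over the same days. The irradiated vehicle and irradiated PTH groups had in addition been given a sub-lethal dose of radiation at 10 days of age, in 2 fractions of 310 cGy, and so were collected 6 days after irradiation. The design asks how irradiation alters the marrow and whether it alters the response to PTH. Whether each array is a mouse of its own or a pool is not in the labels, and p-values therefore measure only the spread between these samples. In bulk marrow, fewer cells of a type and less RNA per cell cannot be told apart.

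Fat enters a tissue and leaves it through different lipases. Lipoprotein lipase (Lpl) and endothelial lipase (Lipg) act outside cells on the lipids of circulating lipoproteins, the first mainly on triglyceride and the second mainly on phospholipid. Inside fat-storing cells, adipose triglyceride lipase (Pnpla2), hormone-sensitive lipase (Lipe) and monoacylglycerol lipase (Mgll) remove the fatty acids of stored triglyceride one after another, while Abhd6 is a monoacylglycerol lipase of membranes that also breaks down the endocannabinoid 2-arachidonoylglycerol. Lysosomal acid lipase (Lipa) splits cholesteryl esters and triglycerides delivered to lysosomes. Marrow holds adipocytes and macrophages, both rich in lipases, among its blood-forming cells.

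The arrays carry some features that bear on the lipases. The interquartile range over all rows was 2.86 in nonirradiated vehicle replicate 3 and 2.88 in irradiated PTH replicate 3, against 3.13 to 3.25 in the other 10 arrays. By Xist and Y-linked genes, 0 of 3 nonirradiated vehicle arrays, 3 of 3 nonirradiated PTH arrays and 1 of 3 arrays in each irradiated group (replicate 1 in both) had the female pattern. Sex thus varied within a group only in irradiated marrow. A term for sex in a fit rests there on replicate 1 against the others, and cannot be told apart from that replicate. Markers of the blood-forming lineages were present in every group, with mean log2 values of 10.75 to 11.23 for 10 neutrophil genes and of 10.75 to 11.01 for 6 measured erythroid genes.

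The start regions of 5 lipases were found in RefSeq's table of mouse promoters on GRCm38.p6, and those of Abhd6, Lipe and Pnpla2 are shown because these 3 genes had the largest differences with PTH in irradiated marrow. Each is the 250 bases upstream of a start site, written along the gene's strand, at chr14:8002638-8002887 on the plus strand for Abhd6, chr7:25395988-25396237 on the minus strand for Lipe and chr7:141454938-141455187 on the plus strand for Pnpla2. Abhd6 and Lipe each had 2 start sites in that table, and the one farthest upstream was used. Pnpla2 had 1. Capitals mark 3 motifs on either strand. The GC box is GGGCGG, which reads CCGCCC on the other strand. The CCAAT box is searched by these letters and by ATTGG, their complement. The E-box is CACGTG, which is its own complement.
Abhd6: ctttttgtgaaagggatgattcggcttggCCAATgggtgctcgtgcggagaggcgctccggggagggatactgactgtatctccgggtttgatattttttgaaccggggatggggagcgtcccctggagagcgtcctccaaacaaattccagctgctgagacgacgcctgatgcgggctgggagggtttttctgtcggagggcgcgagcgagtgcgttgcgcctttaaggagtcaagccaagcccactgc
Lipe: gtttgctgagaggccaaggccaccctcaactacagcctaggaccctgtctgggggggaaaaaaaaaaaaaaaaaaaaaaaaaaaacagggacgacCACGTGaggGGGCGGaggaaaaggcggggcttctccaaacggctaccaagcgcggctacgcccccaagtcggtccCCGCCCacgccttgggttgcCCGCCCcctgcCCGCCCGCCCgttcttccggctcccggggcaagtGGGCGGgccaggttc
Pnpla2: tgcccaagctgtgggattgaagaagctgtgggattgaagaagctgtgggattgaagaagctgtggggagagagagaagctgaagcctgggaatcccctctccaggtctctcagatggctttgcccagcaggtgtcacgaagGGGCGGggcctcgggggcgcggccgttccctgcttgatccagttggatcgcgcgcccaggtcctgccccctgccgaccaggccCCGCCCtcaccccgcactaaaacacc
The windows differ in these letters. That of Abhd6 held 1 CCAAT box and neither of the other motifs, that of Lipe held 6 GC boxes, of which 2 overlap, and 1 E-box, and that of Pnpla2 held 2 GC boxes. Their GC content was 58.4%, 62.8% and 63.2%, against a median of 52.4% over 32851 windows of the same length. A GC box was found in 32.7%, a CCAAT box in 33.8% and an E-box in 6.02% of all windows, on either strand. A CRE (TGACGTCA), the letters bound by the factor CREB, an effector of PTH receptor signalling, was in 0 of the 5 lipase windows and in 1.55% of all windows. The STAT-type site TTCNNNGAA, found in 7.02% of all windows, was also in 0 of 5. A match in letters is a description and shows no binding, and a missing match says nothing about the factor.

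Lipg, the endothelial lipase, was on a low level in all nonirradiated marrow and on a much higher one in all irradiated marrow. On the log2 scale of the arrays it was 6.60, 5.72 and 4.86 in nonirradiated vehicle replicates 1 to 3 and 5.52, 5.68 and 6.02 in the nonirradiated PTH replicates. In irradiated marrow it was 9.47, 9.01 and 9.14 with vehicle and 8.98, 9.18 and 8.26 with PTH. The lowest irradiated array thus lay well above the highest nonirradiated one, and the groups with and without irradiation did not overlap under either treatment. The mean was 3.48 higher after irradiation in vehicle-treated mice (11.1-fold, SE 0.363, n = 3 a group), the 3rd largest difference upward of all genes, and 3.07 higher in PTH-treated mice (8.39-fold, SE 0.363), the 5th largest. The nonirradiated vehicle arrays were the least alike, with an SD of 0.870 against 0.234 to 0.480 in the other groups.

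Abhd6, the membrane monoacylglycerol lipase, was nearly constant in nonirradiated marrow and differed widely between arrays only in the irradiated PTH group. It was 7.17, 7.16 and 6.97 in the nonirradiated vehicle arrays and 7.17, 7.30 and 7.13 in the nonirradiated PTH arrays. It was 10.16, 10.23 and 9.97 in irradiated vehicle marrow, and 10.17, 9.08 and 7.72 in irradiated PTH marrow. Replicate 1 of the irradiated PTH group, the array with the female pattern, lay among the irradiated vehicle arrays, whereas replicate 3 lay closer to the nonirradiated level than to theirs. The difference with irradiation was 3.02 in vehicle-treated mice (8.12-fold, SE 0.425), the 4th largest upward, and 1.79 in PTH-treated mice (3.46-fold, SE 0.425), the 16th largest. Without irradiated PTH replicate 3 the latter was 2.43. The SD in the irradiated PTH group was 1.23, larger than that of 99.6% of all genes there, against 0.0897 to 0.133 in the other groups.

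Lpl, which frees fatty acids from circulating triglyceride for uptake by tissues, was higher in irradiated than in nonirradiated marrow, by less than a doubling of its level. It was 10.60, 10.35 and 10.06 in nonirradiated vehicle and 11.49, 11.25 and 11.06 in irradiated vehicle marrow. With PTH it was 10.71, 9.89 and 10.04 without irradiation and 10.93, 10.92 and 10.50 with it. The vehicle-treated groups did not overlap, while nonirradiated PTH replicate 1 lay inside the range of the irradiated PTH arrays. The difference was 0.93 in vehicle-treated mice (1.90-fold, SE 0.222, limma adjusted p = 0.0548) and 0.57 in PTH-treated mice (1.48-fold, adjusted p = 0.276), neither past the threshold of 0.05. Averaged over both treatments, which uses all 12 arrays, Lpl rose by 0.75 (1.68-fold, SE 0.157, limma adjusted p = 0.0139).

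Lipe, the hormone-sensitive lipase that acts on diglyceride in the lipid droplet, rose 2.49-fold with irradiation in vehicle-treated mice. Its values were 6.49, 7.39 and 7.04 in nonirradiated vehicle and 8.55, 8.40 and 7.92 in irradiated vehicle marrow. In PTH-treated mice they were 7.08, 7.55 and 6.98 without irradiation and 7.90, 7.60 and 7.03 with it. Each irradiated vehicle array lay above each of the other 9 arrays, and in PTH-treated mice the irradiated and nonirradiated arrays overlapped. The difference was 1.32 in vehicle-treated mice (SE 0.275, limma adjusted p = 0.0283) and 0.31 in PTH-treated mice (SE 0.275, adjusted p = 0.666). The call in vehicle-treated mice was lost with a term for sex (1.16, adjusted p = 0.0625) and when nonirradiated vehicle replicate 1 (1.08, adjusted p = 0.0768) or 3 (1.35, adjusted p = 0.0816) or irradiated vehicle replicate 1 (1.19, adjusted p = 0.114) or 2 (1.26, adjusted p = 0.119) was left out. Averaged over both treatments Lipe rose by 0.81 (1.76-fold, SE 0.195, adjusted p = 0.0277), a call that held in 5 of 12 fits with 1 array left out.

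Pnpla2, which starts the breakdown of stored triglyceride, had the largest SD of the 5 tested lipases in 3 of 4 groups, all but the nonirradiated PTH group. It was 7.23, 8.63 and 8.10 in nonirradiated vehicle and 9.84, 9.20 and 8.80 in irradiated vehicle marrow. It was 7.99, 8.54 and 7.94 in nonirradiated PTH marrow and 8.93, 8.49 and 6.86 in irradiated PTH marrow. The vehicle-treated groups did not overlap, and irradiated PTH replicate 3 was the lowest of all 12 arrays. The difference with irradiation was 1.29 in vehicle-treated mice (2.45-fold, SE 0.489, limma adjusted p = 0.254) and -0.06 in PTH-treated mice (adjusted p = 0.970), and was 0.55 in the latter without replicate 3 of the irradiated PTH group. Its SD of 1.09 in that group was larger than that of 99.3% of all genes.

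Mgll, which completes the breakdown of triglyceride by splitting monoglyceride, spanned less than any other lipase here. It was 8.29, 8.49 and 7.87 in nonirradiated vehicle, 8.43, 8.48 and 8.24 in nonirradiated PTH, 8.74, 8.56 and 8.55 in irradiated vehicle and 8.58, 8.34 and 7.90 in irradiated PTH marrow. The irradiated vehicle arrays lay above all nonirradiated ones, by at least the small gap between 8.55 and 8.49. The difference was 0.40 in vehicle-treated mice (SE 0.190, 95% interval -0.01 to 0.82, limma adjusted p = 0.393) and -0.11 in PTH-treated mice (adjusted p = 0.850).

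Lipa, the lysosomal acid lipase, showed a similar small difference. It was 9.37, 9.64 and 8.91 in nonirradiated vehicle, 9.76, 9.59 and 9.32 in nonirradiated PTH, 10.07, 9.86 and 9.65 in irradiated vehicle and 9.81, 9.96 and 9.51 in irradiated PTH marrow. The vehicle-treated groups barely separated, at 9.64 and 9.65, and the PTH-treated groups overlapped. The difference was 0.55 in vehicle-treated mice (1.47-fold, SE 0.201, limma adjusted p = 0.233) and 0.21 in PTH-treated mice (adjusted p = 0.700).

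**Figure D1:**
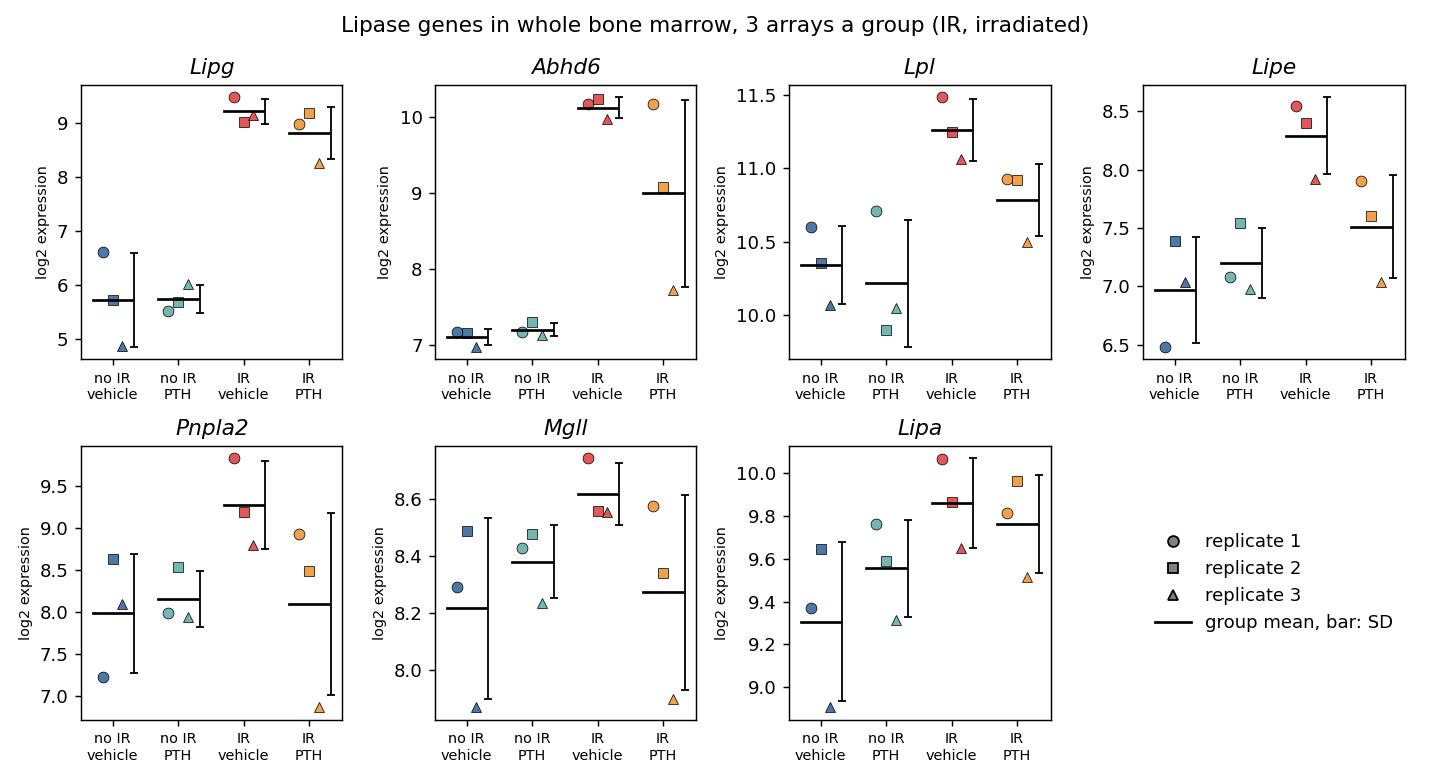
Log2 expression (vertical axis, a scale of its own for each gene) of the 7 lipases in each of the 12 arrays, by group on the horizontal axis (IR, irradiated), with circles, squares and triangles for replicates 1, 2 and 3, the mean as a line and the SD as a bar beside it (n = 3). Lipg and Abhd6 are higher in every irradiated than in every nonirradiated array, and the triangle of irradiated PTH replicate 3 is the lowest point of its group for 7 of 7 genes.

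The 5 lipases other than Lipg and Abhd6 were also followed with earlier results of these arrays known. Of them, 1 of 5 (Lipe) was called higher with irradiation in vehicle-treated mice, where 1.21% of all genes were called higher at an adjusted p under 0.05. All 5 differed upward there, and in 5 of 5 the groups did not overlap, against 8.95% of all genes with non-overlapping groups upward. The gaps of Mgll and Lipa were far smaller than the spread within their nonirradiated group. In PTH-treated mice 0 of 5 were called, against 2.43% of all genes, 3 lay upward and 2, Pnpla2 and Mgll, downward, and 0 of 5 had groups apart, against 8.93% of all genes upward and 10.9% downward. Without irradiated PTH replicate 3 those 2 also lay upward (0.55 and 0.08), and Pnpla2 did so without nonirradiated PTH replicate 2 as well (0.13). In PTH-treated mice 1 of 5, Lpl, had an unadjusted limma p under 0.05, as did 2678 of all 19938 genes. Averaged over both treatments 2 of 5, Lpl and Lipe, were called higher, against 2.51% of all genes. With 5 genes these counts say nothing about lipases as a class. Between Lipg and Abhd6 and the other lipases the size of the difference is set by how the first were picked.

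**Figure D2:**
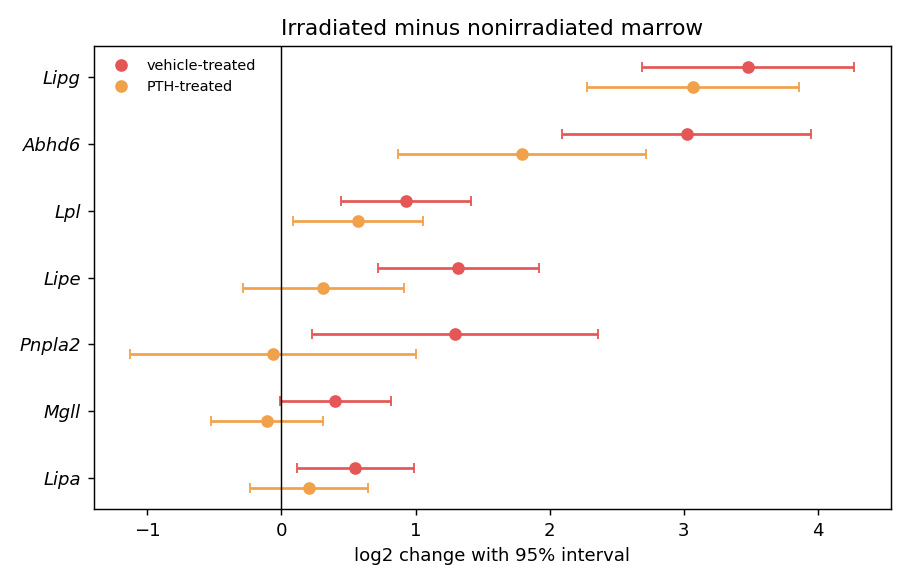
Log2 difference between irradiated and nonirradiated marrow (horizontal axis) for each lipase, in vehicle-treated mice (red) and PTH-treated mice (orange), with 95% intervals from the limma fit (n = 3 a group). In vehicle-treated mice the difference is 3.48 for Lipg and 3.02 for Abhd6 and between 0.40 and 1.32 for the other 5 genes, and the orange point lies to the left of the red one for each gene. Lipg and Abhd6 were picked on this difference, so their intervals are descriptions and not to be read as tests.

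Between the PTH and vehicle groups of nonirradiated marrow, no lipase was shown to differ beyond its spread. The differences between PTH and vehicle ran from -0.12 for Lpl to 0.25 for Lipa, with 0.01 for Lipg and 0.10 for Abhd6. Lipg and Abhd6 were picked on a difference that also used these nonirradiated arrays, so for them it is a description with no test. With limma, 0 of the other 5 were called (adjusted p = 0.99955 for each) and 0 of 5 had an unadjusted p under 0.05. Of all genes 0% were called and 356 had an unadjusted p under 0.05. The 95% intervals still allow sizeable differences, from -0.37 to 0.83 for Lipe and from -0.89 to 1.24 for Pnpla2. All arrays of the nonirradiated PTH group had the female pattern and none of the nonirradiated vehicle group did, so in nonirradiated mice PTH and sex cannot be told apart.

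In irradiated marrow all 7 lipases had a lower mean with PTH than with vehicle (Lipa turned to 0.021 when arrays were centred on housekeeping genes). Lipg and Abhd6 were picked on their rise in these irradiated arrays, so for them the difference is a description with no test. None of the other 5 passed the threshold. The differences were -1.19 for Pnpla2 (SE 0.489), -1.13 for Abhd6 (SE 0.425), -0.78 for Lipe (SE 0.275), -0.48 for Lpl (SE 0.222), -0.40 for Lipg (SE 0.363), -0.35 for Mgll (SE 0.190) and -0.10 for Lipa (SE 0.201). By limma the adjusted p was 0.918 for Lipa and 0.844 for Lpl, Lipe, Pnpla2 and Mgll. The unadjusted limma p was 0.0154 for Lipe, 0.0322 for Pnpla2 and 0.0503 for Lpl. Of all genes 0% were called and 759 had an unadjusted p under 0.05. For Lipe and Lpl each PTH array lay below each vehicle array, which held downward for 4.25% of all genes. The median over the 7 was -0.48, against 0.01 over all genes. This median and the count of 7 lower means hold Lipg and Abhd6, picked on the same irradiated arrays, and so are descriptions.

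The size of these differences depended on single arrays. Irradiated PTH replicate 3, which has a narrow range, was the lowest of its group for 7 of 7 lipases, where 38.2% of all rows of the table had their lowest value in it and 45.7% their highest. These shares mix bright and dim rows. The bright housekeeping list was also lowest there (mean 11.01, against 11.30 and 11.35), but the neutrophil list was not (10.59, against 10.55 and 11.12). The dim list of other lipase family genes was highest there (4.48, against 4.43 and 4.34). The 7 of 7 is thus not shown to be particular to lipases. Without irradiated PTH replicate 3 the difference was -0.57 for Pnpla2, -0.54 for Lipe, -0.50 for Abhd6, -0.34 for Lpl, -0.16 for Mgll, -0.13 for Lipg and 0.03 for Lipa. The limma adjusted p was 0.999994 for each of the 5 tested. Without irradiated PTH replicate 1 it was larger for Abhd6 (-1.72) and Pnpla2 (-1.60), and without replicate 2 for Lipg (-0.59) and Lipa (-0.20). The arrays of irradiated vehicle replicates 1 and 3 also held the highest value of 6 of 7 and the lowest value of 6 of 7 lipases in their group. Of all rows, 38.8% were highest in that replicate 1 and 42.4% lowest in that replicate 3. The part of array quality in these differences was not tested.

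**Figure D3:**
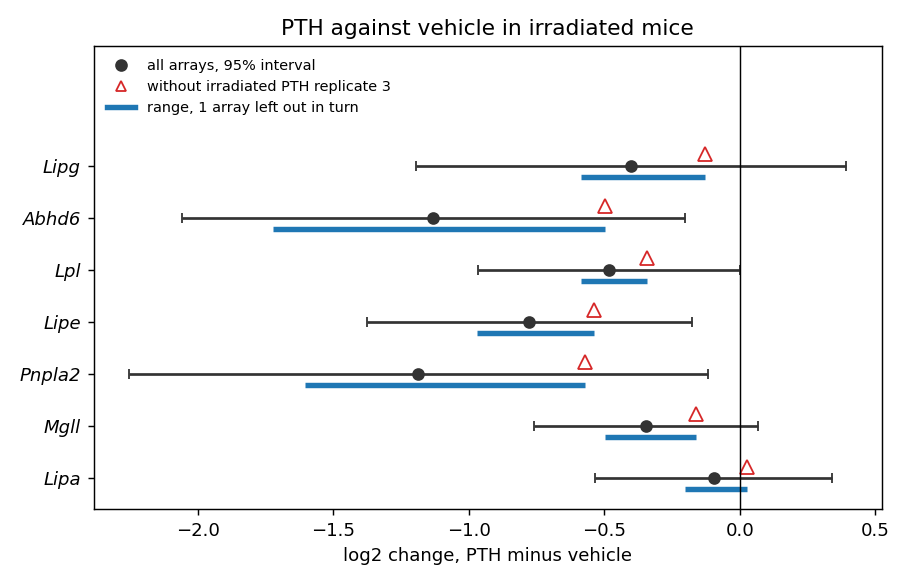
Log2 difference between PTH and vehicle in irradiated mice (horizontal axis) for each lipase, with its 95% interval (black, n = 3 a group), the range over 12 fits with 1 array left out (blue) and the value without irradiated PTH replicate 3 (red triangle). All 7 black points lie at or below -0.10, and the triangles lie nearer to 0, between -0.57 and 0.03. The intervals of Lipg and Abhd6, picked on their rise in these irradiated arrays, are descriptions and not to be read as tests.

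The test of whether irradiation acted differently under PTH and vehicle is the difference between both irradiation effects, which shares all arrays with them. Lipg and Abhd6 were picked on those effects, so for them it is a description with no test, at -1.23 for Abhd6. Among the other 5 it was negative, from -1.36 for Pnpla2 (SE 0.692) and -1.01 for Lipe (SE 0.389) to -0.35 for Lipa (SE 0.284). With limma 0 of 5 were called, and 0% of all genes, with an adjusted p of 0.732 for Lipe. Without adjustment 1094 of all genes and 1 of 5 lipases, Lipe, had a limma p under 0.05. Without irradiated PTH replicate 3 the value was -0.74 for Pnpla2 and -0.59 for Abhd6. Over 24 alternative fits it ran from -1.78 to -0.31 for Pnpla2 and from -1.82 to -0.32 for Abhd6. For Lipg it was also negative but turned to 0.023 without nonirradiated vehicle replicate 3 and to 0.29 without both narrow-range arrays. That Lipe passed the threshold with irradiation in vehicle-treated and not in PTH-treated mice is therefore not shown to be a difference between the treatments.

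The genes around the intracellular lipases were followed through a list of 23 regulators of lipolysis and lipid droplet proteins, of which 19 were measured. In vehicle-treated mice 5 of 19 rose with irradiation and 0 fell, with a list median of 0.38 against -0.03 over all genes. They were Cidec, which helps lipid droplets grow (2.33, SE 0.247, limma adjusted p = 0.00057), Aqp7, the channel through which glycerol leaves fat cells (2.11, SE 0.348, adjusted p = 0.00756), Fabp4, which carries fatty acids and binds Lipe (1.41, SE 0.142, adjusted p = 0.000516), and Plin1, which coats the droplet and holds back Pnpla2's activator (1.36, SE 0.130, adjusted p = 0.000397). The last was Plin4, another coat protein, named after its value was seen (1.37, adjusted p = 0.0099). In PTH-treated mice 3 of 19 rose and 0 fell: Cidec by 1.86, Fabp4 by 1.28 and Plin1 by 0.76 (limma adjusted p = 0.00192, 0.000517 and 0.00884). Aqp7 differed there by 0.997 (adjusted p = 0.208), and without irradiated PTH replicate 3 it passed too (1.45, limma adjusted p = 0.0145).

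The direct partners of Pnpla2 differed less. Abhd5, the coactivator that switches Pnpla2 on, differed by 0.70 in vehicle-treated mice (limma adjusted p = 0.0799, and 0.0238 without irradiated PTH replicate 3) and 0.43 in PTH-treated mice (adjusted p = 0.337), and passed the threshold when averaged (0.56, adjusted p = 0.0228), a call that held in 5 of 12 fits with 1 array left out. G0s2, its inhibitor, looked up after its value was seen, differed by -0.02 and -0.07 (adjusted p = 0.975 and 0.879). Averaged over both treatments, 6 of 19 listed genes rose (those in vehicle-treated mice and Abhd5) and 1 fell, Pde3b, the phosphodiesterase through which insulin restrains lipolysis (-0.47, adjusted p = 0.0442, named after its value was seen). The number that fell was 0 with a term for sex and in 9 of 12 fits with 1 array left out. With PTH 0 of 19 passed in nonirradiated or irradiated mice. The smallest p in irradiated mice was that of Plin1, with a difference of -0.73 (unadjusted p = 0.00012, limma adjusted p = 0.844).

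Partners and inhibitors of Lpl and Lipg formed a list of 22 genes, 19 of them measured. In vehicle-treated mice 2 of 19 rose with irradiation and 0 fell (list median 0.24). They were Angptl4, a secreted inhibitor of Lpl (1.87, SE 0.337, limma adjusted p = 0.012), and Apoc1, an apolipoprotein that inhibits lipoprotein lipolysis (1.39, SE 0.290, adjusted p = 0.0282). With 1 array left out in turn, Angptl4 still passed in 10 of 12 fits and Apoc1 in 8 of 12, and 0 of 19 passed without array 1 of the irradiated vehicle group. With a term for sex Apoc1 no longer passed (limma adjusted p = 0.0533). In PTH-treated mice 0 of 19 passed, with Angptl4 at 0.70 (adjusted p = 0.403) and Apoc1 at 0.87 (adjusted p = 0.183). Without irradiated PTH replicate 3, Angptl4 passed there too (1.18, limma adjusted p = 0.0138). Averaged, 3 of 19 rose, the third being Apoe, a ligand for lipoprotein uptake (0.67, adjusted p = 0.0331, a call kept in 3 of 12 fits with 1 array left out). Gpihbp1, which anchors Lpl to the capillary wall and was looked up after its value was seen, differed by 0.24 and 0.40 (adjusted p = 0.664 and 0.414). Under PTH 0 of 19 passed in either irradiation state.

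The endocannabinoid genes around Abhd6 and Mgll formed a list of 12, all measured. Cnr2, the cannabinoid receptor of immune cells, fell with irradiation by 1.07 in PTH-treated mice (SE 0.148, limma adjusted p = 0.00249), the 1 of 12 past the threshold there, and differed by -0.58 in vehicle-treated mice (adjusted p = 0.0697), where 0 of 12 passed. Naaa, a lysosomal hydrolase of fatty acid ethanolamides, differed by 1.12 in vehicle-treated mice (limma adjusted p = 0.0503, and 0.0245 without irradiated PTH replicate 3) and 0.57 in PTH-treated mice (adjusted p = 0.373). Averaged over both treatments Naaa rose by 0.84 (adjusted p = 0.0178, kept in 10 of 12 fits with 1 array left out) and Cnr2 fell by 0.83 (adjusted p = 0.000494). With PTH 0 of 12 passed.

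Relatives of the 7 lipases by sequence family passed the test in 1 case, Abhd5. Of 10 measured genes of the lipase family, among them Lipm (-0.28 in vehicle-treated mice, limma adjusted p = 0.562) and Lipi (-0.15, adjusted p = 0.672), 0 passed in vehicle-treated, PTH-treated or averaged comparisons. This list was dim, with group means of 4.38 to 4.43 against array medians of 6.18 to 6.25 over all rows, so a change could have been missed. Of 20 other ABHD genes, 1 of 20 passed, Abhd5 when averaged. Of 16 genes listed as other PNPLA genes and neutral lipid hydrolases 0 passed, the closest being Pnpla7, a lysophospholipase (-0.75 in PTH-treated mice, limma adjusted p = 0.0847). The 16 include Lipt1, a lipoyltransferase and not a lipid hydrolase. Of 15 measured genes of lysosomal lipid handling, the surroundings of Lipa, 0 passed, with Ctsd, a lysosomal protease, at 0.74 in vehicle-treated mice (adjusted p = 0.206). With PTH 0 passed in these 4 lists.

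**Figure D4:**
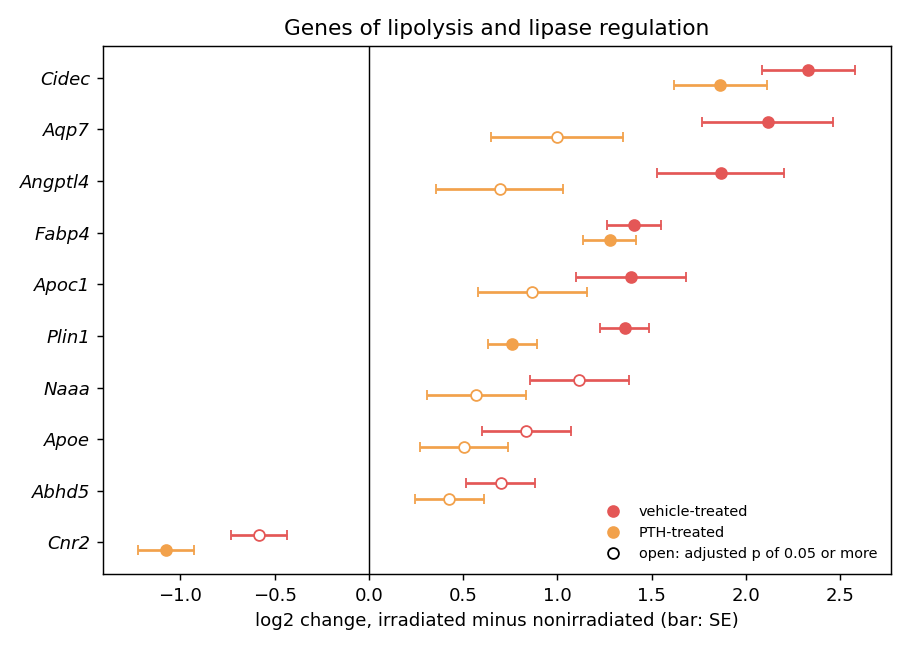
Log2 difference between irradiated and nonirradiated marrow (horizontal axis, bars are standard errors, n = 3 a group) for 10 genes of lipolysis, lipase regulation and endocannabinoid handling, in vehicle-treated (red) and PTH-treated mice (orange), with filled points for an adjusted p under 0.05. Cidec, Fabp4 and Plin1 pass under both treatments, Aqp7, Angptl4 and Apoc1 in vehicle-treated mice, and Cnr2 in PTH-treated mice.

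Markers of fat cells also differed with irradiation. Of 9 measured adipocyte markers, 3 of which (Plin1, Cidec and Fabp4) are also in the lipolysis list, 6 of 9 rose with irradiation in vehicle-treated mice, 3 of 9 in PTH-treated mice and 0 fell. Adipoq, the hormone made by fat cells, was 1.70 higher in vehicle-treated mice (limma adjusted p = 0.0123). The list mean lay between 7.09 and 7.36 over the 6 nonirradiated arrays, between 8.37 and 8.54 in irradiated vehicle and between 7.82 and 8.07 in irradiated PTH marrow. Irradiated PTH replicate 3, lowest of its group for all 7 lipases, was not lowest for this list (8.02, against 7.82 in replicate 2), nor for the B-lineage, neutrophil and muscle lists. It was the lowest of its group for the means of the macrophage list (8.29, against 9.09 and 9.13), the endothelial list (7.66, against 8.25 and 8.31), the stromal list (8.62, against 9.32 and 9.29) and the erythroid list (10.2, against 11.1 and 10.9). The same held for the lysosomal genes and the housekeeping genes. It also held for the lipolysis list (7.44, against 7.83 and 7.71) and the partners of Lpl and Lipg (7.28, against 7.84 and 7.88). The other ABHD genes (6.89, against 7.10 and 7.08), the other PNPLA genes (6.77, against 7.08 and 7.05) and the endocannabinoid genes (6.68, against 6.85 and 6.91) were lowest there too. The other lipase family genes were not. The part of these levels in the lipase values was not tested.

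Other cell types moved less or downward. Macrophage markers rose in 2 of 10 cases in vehicle-treated and 1 of 10 in PTH-treated mice, with list means between 8.45 and 8.87 in nonirradiated vehicle and between 8.90 and 9.34 in irradiated vehicle marrow, and endothelial markers rose in 0 of 10 in both, with list means between 7.71 and 8.04 and between 8.07 and 8.43. B-lineage markers fell in 8 of 9 cases under each treatment, from a list mean of 9.42 to 7.35 in vehicle-treated mice. Skeletal muscle markers, which mark tissue around the bone, passed in 0 of 10 cases, and their list mean ran from 6.31 to 7.59 over all arrays. The part of these cell types in the lipase results was not tested.

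Finally, for each lipase the 3 genes closest to it over the 12 arrays were listed by the smallest root mean square difference of log2 values after subtracting each gene's mean. For Lipg they were Ankrd36 (0.498), Ccl12, a chemokine (0.499), and Ifi205, an interferon-induced gene (0.540), and for Abhd6 they were Podxl (0.354), Fgf23, a hormone of phosphate balance (0.415), and Cyp2f2 (0.442). These distances are larger than those of the other lipases' neighbours, and Lipg and Abhd6 also varied more themselves (root mean square of 1.70 and 1.37 about their means, against 0.255 to 0.787 for the others). Lpl lay nearest to Itgae (0.149), Cped1 (0.169) and Fzd4 (0.172), and Lipe to Ppard, a nuclear receptor for fatty acids (0.130), Flt4 (0.174) and Nnat (0.192). Pnpla2 lay nearest to Pklr (0.205), Lgals3bp (0.255) and Tspan18 (0.283), Mgll to Htra2 (0.0627), Aarsd1 (0.0682) and Golm1 (0.0747), and Lipa to Ccnd1 (0.0957), Trafd1 (0.104) and Fars2 (0.122). None of the closest genes of one lipase was another lipase. The 12 arrays share group, sex and range with every gene, so these likenesses are descriptions.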

How the data were processed

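The 12 arrays measured total RNA of whole bone marrow, 100 ng of which was turned into biotinylated cDNA, per the labels' protocols. The authors' deposited table holds log2 values. Per the submitters' processing notes the tools were affy, RMA and limma, without versions or roles. The scale was read from the values, and neither the genome build nor whether the arrays were normalized in 1 run is given in the sources used here. Of 35556 rows, 21789 had 1 gene symbol, 1621 several and 12146 none in GEO's platform annotation. This left 19938 genes, of which 999 had several rows and were read from the brightest. Symbols were updated through RefSeq's GRCm38.p6 table, where 91 rows had no match.

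Every gene entered a limma 3.58.1 fit (R 4.3.3) with 1 mean for each of 4 groups, 8 residual degrees of freedom and empirical Bayes defaults. Benjamini-Hochberg adjustment ran over all 19938 genes and an adjusted p under 0.05 was called. The number of arrays limits the precision, with a median standard error of 0.166 for the difference of a pair of groups. On data simulated for irradiation in vehicle-treated mice, with 200 of 19938 genes changed in 10 runs, 14.8%, 68.7% and 94.5% of the genes given a log2 change of 0.5, 1 and 2 were called, and 4.52% of calls were false. The lipases and all lists were chosen with earlier results of these data known. From each list, up to 4 genes past the threshold with the smallest p, or else 2 that did not pass, could be named.

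No label states that equal replicate numbers pair arrays. Correlations of deviations from the group means between arrays of the same number ran from -0.650 to 0.596 over all pairs of groups, with 10 of 18 over 0.1. In the irradiated groups they ran from 0.144 to 0.570, so a block was also fitted there alone, added after seeing the data.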

Additional observations from a re-analysis of the deposited data

How the results depend on the processing

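Over 24 alternatives, 0 of 5 tested lipases were called for PTH in nonirradiated mice, for PTH in irradiated mice or for the interaction. The difference of Lipg with irradiation in vehicle-treated mice stayed between 3.05 and 3.92 and that of Abhd6 between 2.72 and 3.10, while Abhd6 in PTH-treated mice ran from 1.20 to 2.43. Of the 5 tested lipases, 1 was called higher with irradiation in vehicle-treated mice. That count was 2, with Lpl added, when only the groups compared were fitted, with array weights, with median centring, with dim genes left out and with the replicate block, and 0 with all rows tested or a term for sex. It ranged from 0 to 2 with 1 array left out (0 on removing array 1 or 3 of the nonirradiated or array 1 or 2 of the irradiated vehicle group, and 2 on removing array 1 of the nonirradiated or array 3 of the irradiated PTH group). Averaged over both treatments 2 were called, 1 (Lpl) with all rows tested, 3 with array weights (Pnpla2 added, 0.77), 3 with the replicate block (Lipa added, 0.38), and 1 to 2 with 1 array left out. Lipe was lost there on removing array 3 of the nonirradiated vehicle, 1 or 3 of the nonirradiated PTH, or 1 or 2 of either irradiated group (limma adjusted p of 0.0528 to 0.0771), and Lpl was called in 24 of 24.

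Signs turned only for differences that were not called. With irradiation in PTH-treated mice, array weights, a term for sex and leaving out both arrays with a narrow range gave 0.53, 0.63 and 0.55 for Pnpla2 and 0.052, 0.11 and 0.078 for Mgll, and single arrays left out gave -0.48 to 0.55 and -0.26 to 0.078. For PTH in nonirradiated mice the term for sex gave -0.32 for Lipg, -0.82 for Abhd6, -0.26 for Lipe, -0.87 for Pnpla2 and -0.16 for Mgll. These values carry over a sex term estimated only from replicate 1 against the other irradiated arrays, so they do not separate PTH from sex. For PTH in nonirradiated mice array weights gave 0.0083 for Lpl, -0.016 for Lipe and -0.18 for Pnpla2. Housekeeping and median centring gave -0.038 and -0.043 for Lipg there, and leaving out both narrow arrays gave -0.42 for Lipg and -0.0099 for Mgll. Single arrays left out gave -0.42 to 0.45 for Lipg, -0.37 to 0.036 for Lpl, -0.013 to 0.44 for Lipe, -0.21 to 0.50 for Pnpla2 and -0.0099 to 0.30 for Mgll. For PTH in irradiated mice Lipa was 0.021 with housekeeping centring, 0.028 without both narrow arrays and -0.20 to 0.028 with 1 array left out. The interaction of Lipg was 0.29 without both narrow arrays and -0.85 to 0.023 with 1 array left out. The cause of these changes was not tested.

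Genes called in all, 442 with irradiation in vehicle-treated mice, 485 in PTH-treated mice and 1216 averaged, became 1149, 1148 and 2517 with array weights. With 1 array left out, those in vehicle-treated mice ran from 211 to 762, at 289 or fewer without array 2 or 3 of the nonirradiated or any array of the irradiated vehicle group, and at 762 without array 3 of the irradiated PTH group. Those in PTH-treated mice ran from 225 to 531, at 283 or fewer without any 1 array of the nonirradiated PTH group or array 1 of the irradiated PTH group. In PTH-treated mice they were 232 with only the groups compared and 200 with a term for sex. For PTH in nonirradiated mice 4 were called with only the groups compared. Housekeeping centring moved the median of all genes by -0.14 for irradiation in vehicle-treated mice and by 0.13 for PTH in irradiated mice. The replicate block in the irradiated groups alone called 0 lipases and 1 gene in all. Over all arrays it brought Naaa and Abhd5 past the threshold in vehicle-treated mice (limma adjusted p = 0.0120 and 0.0194). Each lipase had 1 row, so reading another row was not run.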
